A study of Mus musculus with 4 samples.

Results

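Described here are 10 genes that build an epithelium, as measured in mouse dermal fibroblasts with and without Rbpj. They are the transcription factor genes Trp63, Grhl2 and Elf3, the adhesion genes Cdh1 and Epcam, the protease gene St14, the adaptor gene Sfn, and the cornified envelope genes Sprr1a, Lor and Ivl. The 10 genes were selected on their epithelial roles and with the differences between these arrays already known, so their counts below are a description. Every probe set that the platform annotation gives to 1 of these genes alone was taken, which made 20 of the 34958 single-gene probe sets, and 10 of the 18194 genes, on the arrays. A probe set is a group of short oligonucleotide probes that together report on 1 transcript.

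The study asked how gene expression differs in dermal fibroblasts, which make the collagen of the skin, after deletion of Rbpj, which encodes the DNA-binding protein of the Notch pathway. In the in vivo deleted group the cells came from mice labelled ColI Cre x RBP loxp-loxp, in which a Cre transgene named for type I collagen meets a floxed Rbpj gene. In the in vivo control group they came from RBP loxp-loxp mice, with the same floxed gene and no Cre in the label. The in vitro deleted group is labelled Adeno Cre, an adenovirus carrying Cre recombinase, and the in vitro control group Adeno GFP, an adenovirus carrying green fluorescent protein, so both in vitro groups received a virus. All 4 groups are on a C57BL/6 background, and the labels used here give no age, no number of animals or cultures, and no time after deletion. Each group has 1 array, so no difference below has a replicate check, no test was made, and the number of arrays limits the precision.

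Stratified epithelia are specified by transcription factors of the p63, Grainyhead-like and Ets families, and their cells are held together by E-cadherin and EpCAM. As a keratinocyte leaves the basal layer it exchanges the keratin pair Krt5 and Krt14 for Krt1 and Krt10, and then lines its membrane with involucrin, loricrin and small proline-rich proteins, which transglutaminases crosslink into the cornified envelope. Wounded, cultured or inflamed keratinocytes switch on Krt6a, Krt6b, Krt16 and Krt17 and several Sprr genes, and dermal fibroblasts normally express little of this programme.

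Sprr1a, Ivl and Lor lie in the same gene cluster, the epidermal differentiation complex, and Sprr1a alone of them was over 2-fold higher on the in vivo deleted array. For that reason their promoters are printed first, followed by those of Sfn and Epcam, which were also over 2-fold higher. Each is the 250 bases before the annotated start, 5′ to 3′ on the strand of the gene, from RefSeq (GRCm38.p6). The RefSeq promoter table used here held 6 of the 10 genes, and the capitals mark the motifs listed below the sequences.
Sprr1a, chr3:92485882-92486131, minus strand: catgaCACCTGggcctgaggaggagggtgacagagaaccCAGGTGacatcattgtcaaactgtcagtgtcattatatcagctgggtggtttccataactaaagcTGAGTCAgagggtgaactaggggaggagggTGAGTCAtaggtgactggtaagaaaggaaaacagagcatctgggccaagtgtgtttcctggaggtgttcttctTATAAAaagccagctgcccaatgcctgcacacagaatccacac
Ivl, chr3:92573736-92573985, minus strand: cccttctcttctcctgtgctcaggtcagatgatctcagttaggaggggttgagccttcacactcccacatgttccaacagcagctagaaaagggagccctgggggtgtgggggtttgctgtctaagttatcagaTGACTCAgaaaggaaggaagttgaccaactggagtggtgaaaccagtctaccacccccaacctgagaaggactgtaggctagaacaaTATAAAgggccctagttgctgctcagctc
Lor, chr3:92083143-92083392, minus strand: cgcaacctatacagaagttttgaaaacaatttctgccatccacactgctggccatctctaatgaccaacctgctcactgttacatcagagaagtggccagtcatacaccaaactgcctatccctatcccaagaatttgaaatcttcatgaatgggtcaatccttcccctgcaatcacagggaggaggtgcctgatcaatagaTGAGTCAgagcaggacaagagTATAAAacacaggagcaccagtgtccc
Sfn, chr4:133602169-133602418, minus strand: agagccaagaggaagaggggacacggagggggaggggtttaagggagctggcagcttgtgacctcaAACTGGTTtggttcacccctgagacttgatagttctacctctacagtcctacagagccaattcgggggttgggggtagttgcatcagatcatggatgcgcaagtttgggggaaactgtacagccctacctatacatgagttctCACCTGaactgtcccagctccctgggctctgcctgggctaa
Epcam, chr17:87635729-87635978, plus strand: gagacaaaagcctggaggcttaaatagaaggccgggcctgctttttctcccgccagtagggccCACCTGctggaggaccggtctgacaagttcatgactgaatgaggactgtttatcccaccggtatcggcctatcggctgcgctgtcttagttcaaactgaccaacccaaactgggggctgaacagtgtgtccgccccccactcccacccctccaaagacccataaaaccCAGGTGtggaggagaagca

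The motifs searched on both strands were the RBPJ core GTGGGAA, the E-box CAGGTG that Snail and Zeb repressors can bind, the AP-1 motif TGANTCA and the Grainyhead motif AACCNGTT, and TATAAA was searched on the strand of the gene only. In the stretches printed, none of these matches overlapped another. Sprr1a had AP-1 motifs that began 146 and 116 bases before the start, E-boxes at 245 and 211, and TATAAA at 43. Ivl had an AP-1 motif at 116 bases and TATAAA at 29, and Lor had an AP-1 motif at 48 and TATAAA at 27. All 3 cornified envelope genes therefore carried the AP-1 letters and TATAAA, which are present in 6.75% and 7.59% of 32851 promoters of this length. Sfn had a Grainyhead motif at 184 bases and an E-box at 41, and Epcam had E-boxes at 187 and 19. The promoter of Elf3, not printed, had an E-box at 140. Over the 6 promoters, the E-box was found in 4 (17.2% of all promoters), the Grainyhead motif in 1 (1.79%) and the RBPJ core in 0 (5.42%). A match is a run of letters and not a shown binding site, and the absence of a match concerns this window only.

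Signals below are quantile-normalized log2 values, and a difference is the deleted minus the control array of the same system. A probe set was counted as higher or lower from a 2-fold difference, which is 1 on the log2 scale. Signal near the floor of an array carries little information, so the 95th percentile of 83 probe sets of chemosensory receptor genes (odorant, vomeronasal and taste receptors) was taken as background: it lay at 4.72 on the in vivo deleted array, 4.66 on the in vivo control array, 4.66 on the in vitro deleted array and 4.69 on the in vitro control array. Of the 3 Rbpj probe sets, 1454896_at read 8.19 on the in vivo deleted and 9.02 on the in vivo control array (difference -0.83), and 7.29 on the in vitro deleted and 8.63 on the in vitro control array (-1.34). The other Rbpj probe sets differed by -0.10 and -0.49 in vivo and by -1.11 and 0.10 in vitro, and where the probes lie relative to the deleted exons was not used here. The bioB hybridisation control averaged 7.22 and 7.17 on the in vivo deleted and control arrays, and 8.26 and 8.32 on the in vitro ones, so differences in level between the systems and differences between array runs cannot be told apart. Among markers of the labelled cell type, all 19 measured fibroblast and mesenchymal genes were above background on all 4 arrays.

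In vivo, 5 of the 20 probe sets were at least 2-fold higher on the deleted array, 1 each for Cdh1, Epcam, St14, Sfn and Sprr1a, which is 25% against 1.65% of all single-gene probe sets. None of the 20 was at least 2-fold lower, against 1.79% of all. The other 15 probe sets differed by -0.45 to 0.38, and the median over the 20 was 0.14, against -0.0011 over all probe sets. In vitro, 0 of 20 were at least 2-fold higher (2.51% of all) and 0 were at least 2-fold lower (0.641% of all), with a median of -0.06 against -0.0132. In bulk RNA of this kind, more cells of a type and more RNA per cell cannot be told apart.

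**Figure D1:**
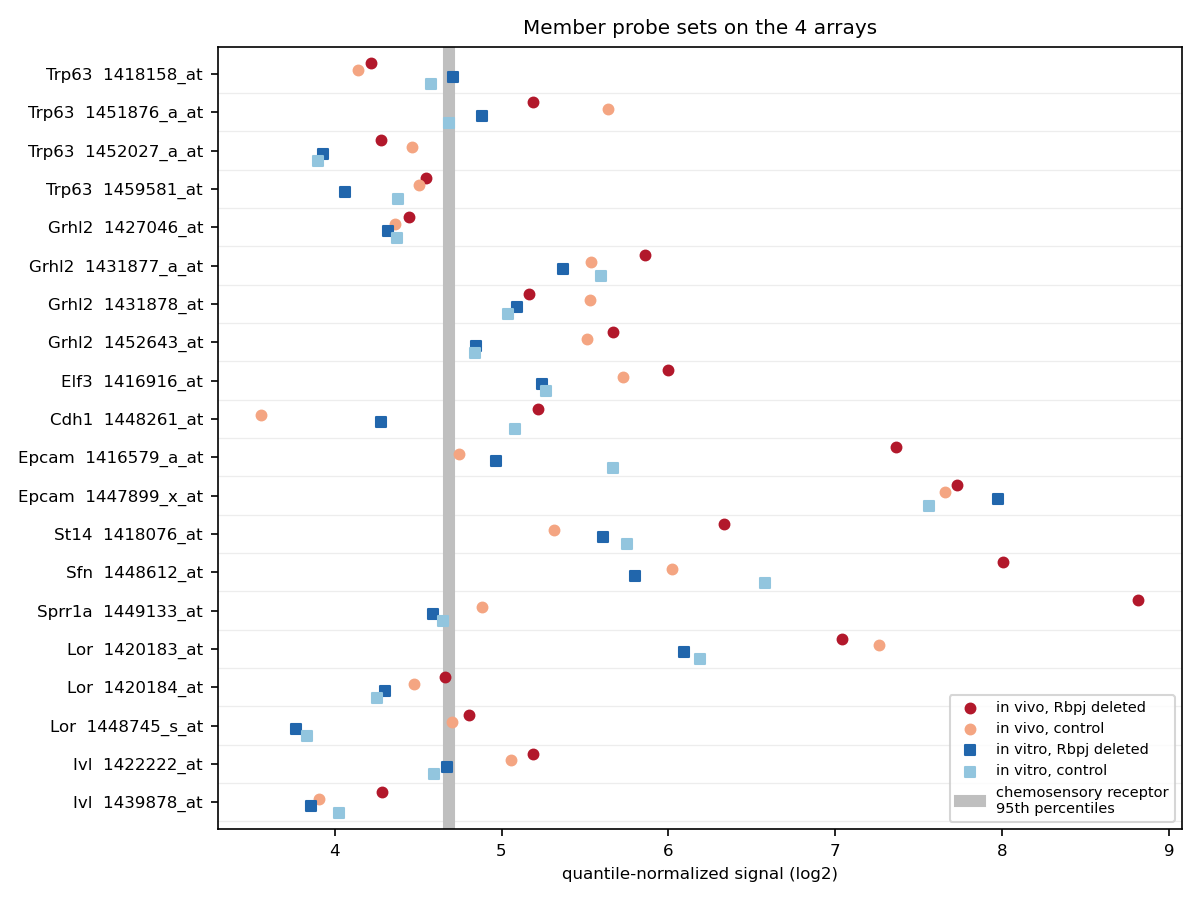
Quantile-normalized log2 signal of the 20 probe sets on the 4 arrays (circles in vivo, squares in vitro, dark for deleted and light for control). The grey band spans the background levels of the 4 arrays, 4.66 to 4.72. The in vivo deleted array stands to the right for Sprr1a, Sfn, St14, Cdh1 and 1 of the Epcam probe sets, and the transcription factor probe sets reach at most 6.00.

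Among the transcription factors, none of 9 probe sets reached a 2-fold difference in either system. Trp63 encodes p63, the factor on which the basal layer of stratified epithelia depends. Its brightest probe set, 1451876_a_at, read 5.19 on the in vivo deleted array and 5.64 on the in vivo control array, and 4.89 on the in vitro deleted and 4.69 on the in vitro control array. The in vivo deleted array was thus the lower of its pair (difference -0.45), and the in vitro deleted array the higher of its pair (0.20). Trp63 1418158_at read 4.21 and 4.14 in vivo and 4.71 and 4.57 in vitro (deleted, then control, in each system). The remaining Trp63 probe sets, 1452027_a_at and 1459581_at, stayed between 3.90 and 4.55 on every array, under the background level, with in vivo differences of -0.18 and 0.04.

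Grhl2, a Grainyhead-like factor that activates Cdh1 and other junction genes, was above background on all 4 arrays for 3 of its 4 probe sets. Its probe set 1431877_a_at read 5.86 on the in vivo deleted and 5.54 on the in vivo control array, and 5.37 on the in vitro deleted and 5.60 on the in vitro control array. Probe set 1452643_at had the same sign in vivo and almost no difference in vitro, at 5.67 on the in vivo deleted, 5.51 on the in vivo control, 4.85 on the in vitro deleted and 4.84 on the in vitro control array. Probe set 1431878_at went the other way in vivo, with 5.16 on the deleted and 5.53 on the control array, so the Grhl2 differences in vivo were 0.32, 0.15, -0.37 and, for the dim 1427046_at, 0.09. The sign of the Grhl2 difference therefore depended on the probe set.

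Elf3 encodes an Ets factor of differentiating epithelial cells. Its probe set 1416916_at read 6.00 on the in vivo deleted and 5.73 on the in vivo control array, and 5.24 on the in vitro deleted and 5.27 on the in vitro control array. All 4 arrays were above background, and the difference was 0.27 in vivo and -0.03 in vitro. The other 17 measured genes of the epithelial transcription factor list also held 0 at least 2-fold higher and 0 lower genes in either system, with median differences of 0.22 in vivo and -0.04 in vitro. Over all genes, each represented by its brightest probe set, 1.87% were at least 2-fold higher and 2.32% lower in vivo, and 0.517% were higher and 0.693% lower in vitro. The median over all genes was -0.0144 in vivo and -0.0338 in vitro. Of the 17, 14 had a positive in vivo difference, the largest being 0.72 for Esrp1, an epithelial splicing regulator below background on all 4 arrays. Only 10 of the 17 were above background on the in vivo deleted array and 7 on the in vivo control array. Part of this sign count therefore ranks values near the floor. Klf5, a factor of proliferating epithelial cells, differed by 0.55 in vivo and 0.58 in vitro.

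Cdh1, which encodes E-cadherin, the adhesion molecule of adherens junctions, was 3.15-fold higher on the in vivo deleted array. Its single probe set read 5.22 on the in vivo deleted and 3.56 on the in vivo control array, and 4.28 on the in vitro deleted and 5.08 on the in vitro control array. The in vivo deleted and in vitro control arrays were the 2 above background, so the direction differed between systems (1.66 in vivo, -0.80 in vitro). Because its lower value in each system lay under background, neither size is exact.

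The Epcam probe sets disagreed. EpCAM is a surface adhesion molecule of many epithelia, and in skin also of Langerhans cells. Probe set 1416579_a_at read 7.36 on the in vivo deleted and 4.75 on the in vivo control array, and 4.97 on the in vitro deleted and 5.67 on the in vitro control array. The in vivo deleted array was the highest of the 4, 6.14-fold over its control (difference 2.62), while the in vitro deleted array was under its own control (-0.70). Probe set 1447899_x_at, whose suffix marks probes that can bind other transcripts, read 7.73 and 7.66 on the in vivo deleted and control arrays, and 7.97 and 7.56 on the in vitro deleted and control arrays. Its differences were 0.07 in vivo and 0.42 in vitro, so with the brightest probe set alone Epcam would not have been counted. Of 9 Langerhans cell and leukocyte genes, 1 was at least 2-fold higher in vivo, Cd74 (1.41), and the median was 0.04. Cd207, the langerin gene of Langerhans cells, differed by 0.04 in vivo. The part of Langerhans cell RNA in the Epcam difference was not tested.

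The 13 other measured adhesion and tight junction genes included 0 at least 2-fold higher and 0 lower in either system, with medians of 0.09 in vivo and 0.03 in vitro. Over all genes 1.87% were higher and 2.32% lower in vivo, and 0.517% and 0.693% in vitro, so these counts are close to those shares. Cgn, Cldn1, Marveld2, Marveld3, Nectin4 and Ocln were under background on all 4 arrays. Cldn4, a tight junction claudin, came closest to the threshold in vivo, at 5.55 on the deleted and 4.58 on the control array (difference 0.97). Cdh3, the P-cadherin gene, had the opposite sign, at 6.25 on the in vivo deleted and 7.18 on the in vivo control array (-0.93). Its other probe set (0.21) was under background on both in vivo arrays, at 4.36 and 4.15.

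St14 encodes matriptase, a membrane serine protease needed for the epidermal barrier. It read 6.33 on the in vivo deleted and 5.31 on the in vivo control array, and 5.61 on the in vitro deleted and 5.75 on the in vitro control array. The in vivo deleted array was the highest of the 4, and its difference from the in vivo control only just reached the threshold (2.03-fold, 1.02 on the log2 scale). With the values as deposited the difference was 0.92, and with loess within the pair 0.90, so St14 was not counted under those scalings. Of the 11 other genes of the matriptase pathway and skin serine proteases, 3 were at least 2-fold higher in vivo and 0 lower. Over all genes 1.87% were higher and 2.32% lower in vivo. In vitro 0 of the 11 passed in either direction (medians 0.33 in vivo and 0.01 in vitro). These 3 were kallikrein genes, whose proteases cleave corneodesmosomes or act in the epidermis. Klk7 read 8.01 on the in vivo deleted and 5.83 on the in vivo control array, and Klk8 and Klk6 differed by 1.73 and 1.36. Prss8, the prostasin gene that acts with matriptase, differed by -0.34, and Spint1, which encodes a matriptase inhibitor, by 0.71.

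Sfn encodes 14-3-3 sigma, an adaptor protein abundant in squamous epithelia that restrains the cell cycle after DNA damage. It read 8.01 on the in vivo deleted and 6.02 on the in vivo control array, and 5.80 on the in vitro deleted and 6.58 on the in vitro control array. All 4 arrays were above background, with the in vivo deleted array the highest (3.95-fold, difference 1.98) and the in vitro deleted array the lowest (-0.78, or 1.72-fold lower than its control). The 10 other squamous epithelial genes listed had a median of 2.05 in vivo. Of these, 8 were at least 2-fold higher in vivo, against 1.87% of all genes, and 0 lower. They included Dmkn (3.99), a secreted product of differentiating keratinocytes, Cst6 (3.15), a cysteine protease inhibitor of the epidermis, Perp (3.09), a desmosomal p63 target, and Trim29 (2.47). In vitro 9 of these 10 had a negative difference, where the median over all genes was itself negative (-0.0338). The most negative was Perp at -0.82, and 0 reached 2-fold in either direction. Trim29 (-0.03) and Dmkn (-0.09, under background on both in vitro arrays) were near 0.

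Sprr1a, a small proline-rich precursor of the cornified envelope, differed most of the 10 genes in vivo. It read 8.82 on the in vivo deleted and 4.89 on the in vivo control array, and 4.59 on the in vitro deleted and 4.65 on the in vitro control array. Only the in vivo deleted array stood clear of background, the in vivo control array was just above it, and both in vitro arrays were under it. The in vivo difference of 3.93 is 15.2-fold, with a control signal too near background for the size to be exact. In vitro the difference was -0.06.

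Lor and Ivl, whose products loricrin and involucrin are the classic proteins of the cornified envelope, did not share this difference. The brightest Lor probe set, 1420183_at, read 7.04 on the in vivo deleted and 7.26 on the in vivo control array, and 6.09 on the in vitro deleted and 6.19 on the in vitro control array. All 4 arrays were above background and the deleted array of each pair was slightly under its control (-0.22 in vivo, -0.10 in vitro). The other Lor probe sets, 1420184_at and 1448745_s_at, stayed between 3.77 and 4.81, with in vivo differences of 0.18 and 0.10. Ivl 1422222_at read 5.19 on the in vivo deleted and 5.05 on the in vivo control array, and 4.67 on the in vitro deleted and 4.60 on the in vitro control array, which gives 0.13 in vivo and 0.07 in vitro. Ivl 1439878_at was under background on all 4 arrays (3.86 to 4.28), with differences of 0.38 in vivo and -0.17 in vitro.

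The 43 other measured cornified envelope and barrier genes included 6 at least 2-fold higher in vivo, against 1.87% of all genes, and 0 lower. Their median was 0.14. In vitro 0 were higher and 0 lower, with a median of -0.03. The 6 were Sprr1b (3.49), Asprv1 (2.86), Krtdap (2.78), Sbsn (1.72), Sprr2h (1.37) and Cdsn (1.20). Sprr1b, a close relative of Sprr1a, read 7.97 on the in vivo deleted and 4.48 on the in vivo control array, and 3.70 on the in vitro deleted and 3.93 on the in vitro control array. Flg, the filaggrin gene of the outer epidermis, differed by 0.03 in vivo but was under background on all 4 arrays, and Tgm1, the keratinocyte transglutaminase gene, differed by 0.02 and was above it. The 3 Sbsn probe sets ranged from 0.43 to 1.72. Small proline-rich genes are alike in sequence, so their probe sets may share signal. Over all 5 epithelial lists without the 10 genes, 17 of 94 measured genes were at least 2-fold higher in vivo and 0 lower. Over all genes on the arrays these shares were 1.87% and 2.32%. In vitro 0 of the 94 passed in either direction.

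**Figure D2:**
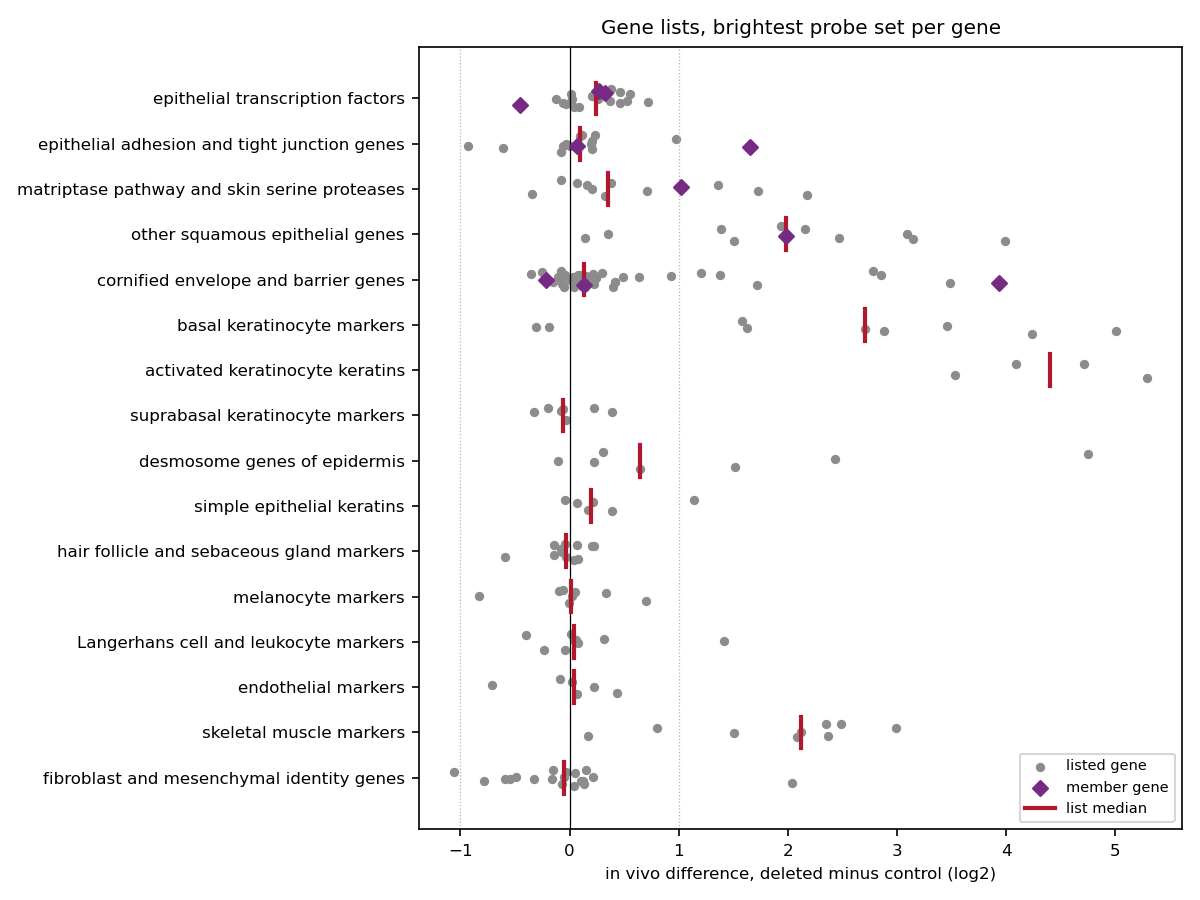
In vivo difference, deleted minus control (log2, horizontal axis), of every measured gene in 16 lists, with the brightest probe set per gene. Diamonds are the 10 genes described here, dots the other listed genes, red bars the list medians (members included) and dotted lines the 2-fold thresholds. Other squamous genes, basal and activated keratinocyte genes and skeletal muscle genes lie mostly right of the threshold, while transcription factors and suprabasal markers do not. Epcam appears at 0.07, its brightest probe set.

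In the order of RefSeq genes, the epidermal differentiation complex on chromosome 3 was taken to run from S100a1 to S100a10. It holds 70 protein-coding genes, 48 of them measured, and its bounds were chosen after the values were seen. In vivo 7 of the 48 were at least 2-fold higher, against 1.87% of all genes, and 0 lower, with a median of 0.10. They were S100a14 (1.51), S100a8 (1.29), S100a9 (1.63), Sprr2h (1.37), Sprr1b (3.49), Sprr1a (3.93) and Crct1 (1.47). On the in vivo control array S100a8 (4.49), S100a9 (4.23), Sprr2h (3.57) and Sprr1b (4.48) were under background, so their sizes are not exact. Sprr2h was near background on the in vivo deleted array too, at 4.95. The higher genes were interspersed with others: Sprr3 (-0.26) lies between Sprr1b and Sprr1a, and 1 gene separates Sprr1a from Ivl (0.13). Between Sprr1a and Lor (-0.22) there are 14 genes. In vitro 0 of the 48 were higher and 1 was lower, S100a13 (-1.04), against 0.517% and 0.693% of all genes. The in vitro median of the 48 was -0.05.

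**Figure D3:**
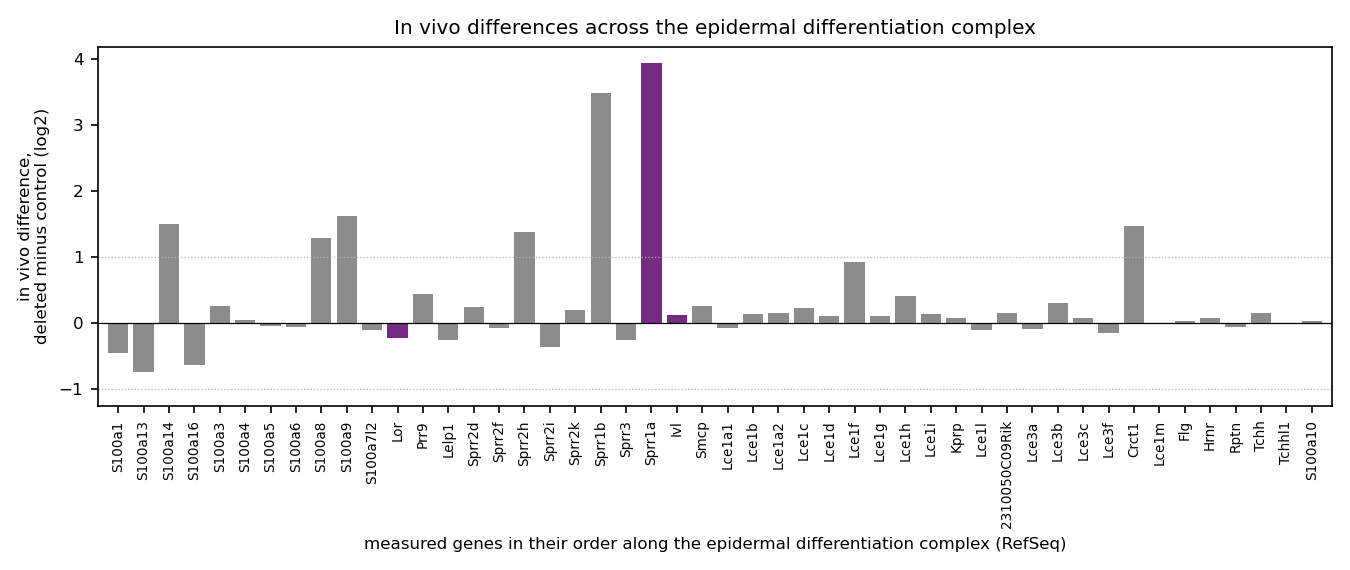
In vivo difference, deleted minus control (log2), of the 48 measured genes of the epidermal differentiation complex in chromosomal order; spacing is not to scale. Purple bars are Lor, Sprr1a and Ivl. Sprr1b and Sprr1a stand above all others at 3.49 and 3.93, while their measured neighbours Sprr2k, Sprr3 and Ivl lie at 0.20, -0.26 and 0.13.

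Markers of other cell types moved with the 5 higher genes in vivo. Of the 9 measured basal keratinocyte markers, 7 were at least 2-fold higher in vivo, against 1.87% of all genes, and 0 lower (median 2.71). The summed linear signal of the list was 4794 on the in vivo deleted and 1172 on the in vivo control array. Krt14 read 10.94 and 5.93, and Krt5 10.28 and 6.04, on the in vivo deleted and control arrays. Krt15 (5.18 and 5.37) and Dst (9.36 and 9.67) went the other way, with differences of -0.19 and -0.31, and were above background on both. The 4 Dst probe sets ranged from -0.31 to 1.21. The 3 Krt14 probe sets ranged from 0.50 to 5.01, and the bright ones differed by 5.00 and 5.01. The 0.50 came from a dim probe set, at 5.01 on the deleted array and 4.51, under background, on the control array. All 4 activated keratinocyte keratins were at least 2-fold higher, led by Krt6a (5.29) and Krt6b (4.72), with summed signals of 3061 on the in vivo deleted and 112 on the in vivo control array. Of 7 desmosome genes 3 were higher, among them Dsp (4.75) and Pkp1 (2.43). The sums were 1059 on the deleted and 460 on the control array. The other Dsp probe sets differed by 4.45 and 0.39. The 0.39 came from a probe set under background on both in vivo arrays, at 4.54 and 4.15. The part of keratinocyte RNA in the differences of Cdh1, Epcam, St14, Sfn and Sprr1a was not tested.

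Of the 7 suprabasal markers none was at least 2-fold higher or lower in vivo (median -0.06). Over all genes 1.87% were higher and 2.32% lower, so 0 in so short a list is close to the share over all genes. The summed signal of the list was 137 on the in vivo deleted and 146 on the in vivo control array. Krt1 read 4.55 on the in vivo deleted and 4.75 on the in vivo control array, near background on both, and Krt10 read 5.42 and 5.74. On the in vivo deleted array 1 of the 7 was above background, and on the in vivo control array 2 were. Thus Lor, Ivl, Krt1, Krt10 and Flg were all under a 2-fold difference on the array where Krt14, Krt6a and Sprr1a were above 2-fold. Flg and the suprabasal markers Dsc1, Dsg1a, Dsg1b, Krt2 and Krt77 were under background on all 4 arrays, and Krt1 was near it. The differences of all these genes carry little information. Other differentiation genes did pass 2-fold: 6 of the 43 other cornified envelope and barrier genes were higher, among them Asprv1 (2.86) and Krtdap (2.78).

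Markers of muscle differed too. Of 9 skeletal muscle markers 7 were at least 2-fold higher in vivo (median 2.12), against 1.87% of all genes. Their summed signals were 3402 on the in vivo deleted and 747 on the in vivo control array. Actc1, a striated muscle actin, differed by 2.99, while Myod1 (0.80) and Ckm (0.17) stayed under 2-fold. Ckm was above background on both in vivo arrays, at 6.38 on the deleted and 6.22 on the control array. The 2 Des probe sets differed by 1.51 and -0.11, and the latter was near background. Of 9 Langerhans cell and leukocyte genes 1 was higher, Cd74 (1.41), with sums of 499 and 346 on the in vivo deleted and control arrays. None of 8 melanocyte, 12 hair follicle and sebaceous or 6 endothelial markers reached 2-fold in either direction, and among 6 simple epithelial keratins only Krt8 did (1.14 for its brightest probe set, 0.51 to 1.14 over its 3). Of the 19 fibroblast and mesenchymal genes, 1 was at least 2-fold higher in vivo and 1 lower, with a median difference of -0.05. Zeb2, a mesenchymal repressor gene, differed by 2.04 (0.32 to 2.04 over its 5 probe sets), and Lum, the gene of a collagen-binding proteoglycan, by -1.06. Vim read 12.94 on the in vivo deleted and 12.80 on the in vivo control array, and Twist1 differed by -0.78. Col1a1 lay at the top of the scale on both (13.72 and 13.57), where quantile normalization fixes the values, so its difference is not read. The mesenchymal repressor gene Zeb1 read 8.84 on the in vivo deleted and 9.39 on the in vivo control array, with differences of -0.55 to 0.03 over its 4 probe sets.

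In vitro, the 5 probe sets that were higher in vivo all had a negative difference, between -0.80 and -0.06. Of the other 15 probe sets 7 were negative, with a range of -0.32 to 0.42. Sprr1a (-0.06, under background on both in vitro arrays) and St14 (-0.15) lay within that range. Cdh1, Sfn and Epcam 1416579_a_at were the most negative of the 20. Of the 9 basal keratinocyte markers 8 were also negative in vitro, where the median over all genes was -0.0338. At least 2-fold lower were 2 of the 9, against 0.693% of all genes. Krt14 read 6.80 on the in vitro deleted and 8.43 on the in vitro control array (-1.62), and Krt5 differed by -1.03. Of the 4 activated keratinocyte keratins, all higher in vivo, Krt17 (-1.30) was at least 2-fold lower in vitro, while the other 3 had positive differences: Krt6a 0.29 (-0.91 to 0.29 over its probe sets), Krt16 0.20 and Krt6b 0.10. Over the probe sets of each gene the in vitro difference ran from -1.62 to -0.02 for Krt14 and -1.30 to -0.18 for Krt17. The -0.02 and -0.18 came from probe sets under background on both in vitro arrays, so they carry little information. These read 4.44 and 4.46 for Krt14, and 3.58 and 3.76 for Krt17 (deleted, then control). The other bright Krt14 probe set differed by -1.47. The basal list summed to 1142 on the in vitro deleted and 1438 on the in vitro control array. Of all 340 genes at least 2-fold higher in vivo, 182 (53.5%) had a negative in vitro difference. Control probe sets that bear on RNA integrity differed in this pair as well: the 3′ minus 5′ signal of Actb was 0.40 on the in vitro deleted and 1.11 on the in vitro control array, and that of Gapdh 0.02 and 1.003, whereas in vivo the deleted and control arrays gave 0.15 and 0.41 for Actb and 0.13 and 0.14 for Gapdh. Pcx had the same order in vitro, at 2.01 on the deleted and 3.16 on the control array, but Tfrc had the opposite one, at 1.45 and 0.96. In vivo the deleted and control arrays gave 0.83 and 1.10 for Pcx and 1.54 and 1.25 for Tfrc. The part of RNA integrity in the in vitro differences was not tested.

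**Figure D4:**
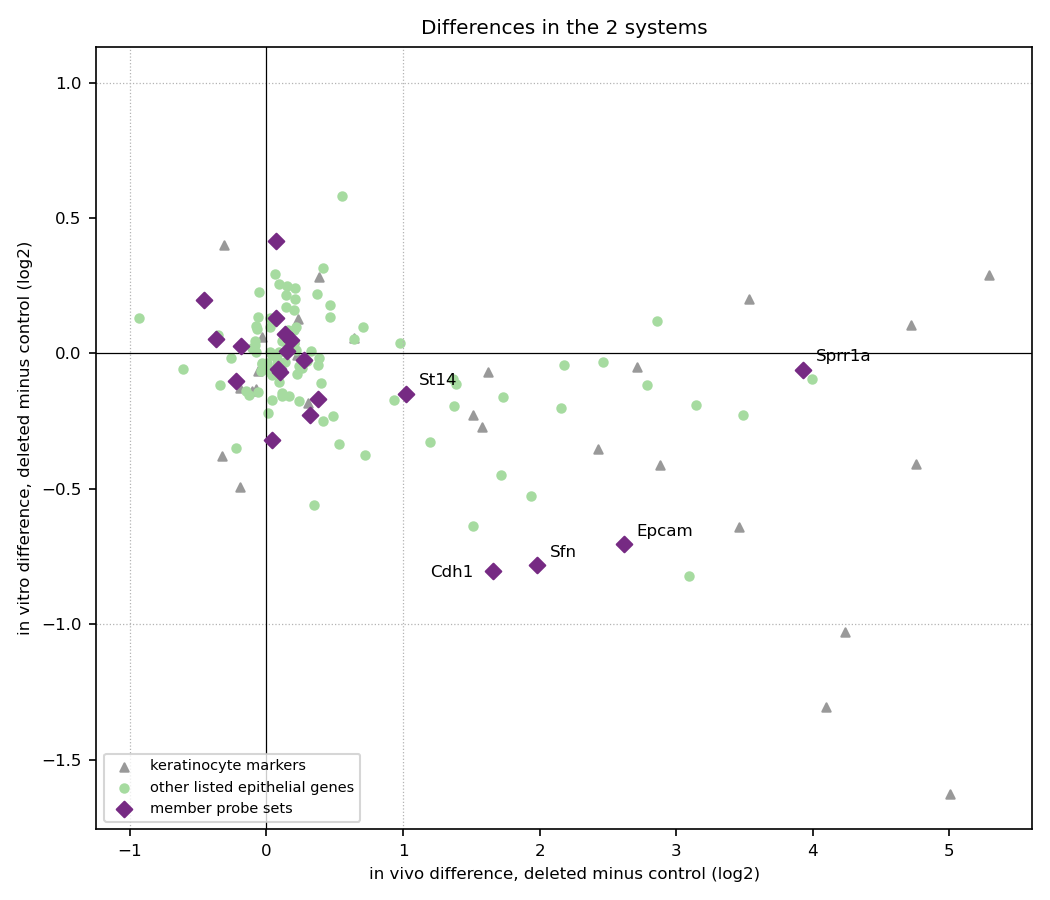
In vivo difference (horizontal) against in vitro difference (vertical), both deleted minus control on the log2 scale. Diamonds are the 20 probe sets of the 10 genes, circles the other listed epithelial genes and triangles keratinocyte markers; dotted lines mark 2-fold. The 5 labelled probe sets, over 2-fold higher in vivo, all lie under 0 in vitro, though Sprr1a (-0.06) and St14 (-0.15) are close to it. The remaining 15 lie between -0.45 and 0.38 in vivo and between -0.32 and 0.42 in vitro.

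The level in fibroblasts of either system, irrespective of deletion, also varied among the genes. For 11 of the 20 probe sets both in vivo arrays were above both in vitro arrays, against 32.9% of all single-gene probe sets, and 10 of these 11 were under 2-fold in the in vivo comparison. The 11 included 6 transcription factor and 5 cornified envelope probe sets, such as Lor 1420183_at and Elf3. Among them, Trp63 1452027_a_at and 1459581_at and Lor 1420184_at were under background on all 4 arrays. Lor 1448745_s_at and Sprr1a were under it on both in vitro arrays, so part of this count ranks values near the floor. The bioB control also differed between the systems, so these level differences and a difference between array runs cannot be told apart.

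For each of the 5 higher genes, the 3 genes with the most similar pattern were found among 18184 others by the Euclidean distance over the 4 arrays, after each probe set's mean was subtracted. Sprr1a was nearest to Dmkn (0.37), Krt16 (0.38) and Sprr1b (0.38). Epcam 1416579_a_at was nearest to Bex1 (0.33), Hbegf (0.34), which encodes a growth factor that binds the EGF receptor, and Pkp1 (0.35), the plakophilin of desmosomes. Sfn lay nearest to Bex1 (0.29), Lcn2 (0.29) and Serpinb5 (0.33), the maspin gene, and Cdh1 to Hp (0.25), Sbsn (0.26) and Rarres2 (0.26). St14, whose difference was small, had closer neighbours in Fam89a (0.07), Il13ra2 (0.08) and Ska3 (0.09). With 4 arrays this is only a coarse likeness.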

How the data were processed

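Expression was measured on 4 Affymetrix arrays, 1 per group, with poly(A) RNA copied from a T7-(dT)24 primer into biotin-labelled cRNA, per the labels' protocols. The deposited table holds log2 expression values for 45101 probe sets. The log2 scale was read from the values, and the authors' software, background correction and normalization are not given in the sources used here. Values were quantile normalized (limma 3.58.1, R 4.3.3). Of 35890 annotated probe sets, 34958 had 1 gene symbol and 932 had several and were not named. Symbols were updated through RefSeq (GRCm38.p6; 34754 matched). Members were described by all their probe sets, and listed genes by the brightest.

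Members and lists were chosen with earlier results of these data known. Of 218 list entries, 200 had a single-gene probe set. Named genes are the members, up to 4 others per list and comparison with the largest absolute difference, the defining markers, Rbpj, and the 3 genes most like each higher member; genes of the epidermal differentiation complex, and Flg, Tgm1, Cd207, Sprr2h and any others outside this rule, were named after their values were seen. No test was possible with 1 array per group. Alternatives were the deposited scaling, loess within a pair, median centring, a constant of 15.3 added before log2, filters on dim and cross-hybridising probe sets, the brightest probe set per gene, and thresholds of 1.5-fold and 3-fold.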

Additional observations from a re-analysis of the deposited data

Results flagged for a closer look

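The 5 probe sets at least 2-fold higher on the deleted array in vivo all had a difference of the opposite sign in vitro. Of all 340 genes at least 2-fold higher in vivo, by the brightest probe set, 182 (53.5%) also had a negative in vitro difference. The 5 were picked by their high in vivo difference, so a large gap between the systems follows in part from that choice. Of the other 15 probe sets, 6 also had a positive difference in vivo and a negative one in vitro, with in vivo values under 2-fold. The in vivo difference minus the in vitro difference (log2) was 3.99 for Sprr1a, 3.32 for Epcam 1416579_a_at, 2.77 for Sfn, 2.46 for Cdh1 and 1.17 for St14. With 1 array per group this difference between systems was not tested. The in vitro parts of Sprr1a (-0.06) and St14 (-0.15) were close to 0, and both in vitro arrays lay under background for Sprr1a, so its sign there carries no information.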

How the results depend on the processing

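With a constant of 15.3 added to the linear signal before log2, which shrinks differences of dim probe sets, 3 of the 20 probe sets were at least 2-fold higher in vivo in place of 5: Cdh1 (0.95) and St14 (0.80) were no longer counted, and Epcam 1416579_a_at and Sprr1a were 2.09 and 3.38. At a 1.5-fold threshold 3 probe sets were lower in vitro in place of 0 (Cdh1, Epcam 1416579_a_at and Sfn). The in vivo count was 4 with the deposited scaling and with loess, where St14 was lost, 4 with the brightest probe set per gene, where Epcam was lost, and 4 at 3-fold; it was 5 under the other alternatives. Of 160 recomputed differences of single probe sets, 157 moved by less than the pooled SD of a gene's own probe sets (0.295 in vivo, 0.398 in vitro), and 0 of those past 2-fold changed sign. Elf3 in vitro, at -0.03, was 0.0038 as deposited. Over all single-gene probe sets the share of higher among 2-fold calls in vitro was 79.6%, and it was 42.7% with the brightest probe set per gene, 57.3% at 1.5-fold and 98.6% at 3-fold. No paired analysis was possible because each group has 1 array. Values near background, as for Cdh1, limit the sizes given.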
